A study of Mus musculus with 18 samples.

Results

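Macrophages lacking p110g were compared with wild-type (WT) macrophages after 24 h of stimulation with IFNg and LPS, across all genes that were expressed. The features described are genes: 15627 of the 16474 genes in the deposited table had a normalised read count of at least 10 in 3 or more of the 18 libraries and were tested. The macrophages were grown from the bone marrow of C57BL/6 mice aged 8 weeks, during 6 days in culture with M-CSF at 50 ng/ml. For the last step, cells of both genotypes received M-CSF at 20 ng/ml, for 24 h without addition, for 24 h together with IFNg and LPS (LPS at 100 ng/ml), or for 48 h together with IL-4 at 20 ng/ml. Each of the 6 groups had 3 libraries of total RNA, numbered 1 to 3, so 6 libraries carried the main comparison. As far as the labels state, all groups therefore shared the strain, the M-CSF and the growth period, and the IFNg/LPS groups differed in genotype alone. Whether the 3 numbered libraries of a group stem from different mice or cultures is not stated; p-values therefore cover the spread among these libraries, which may be technical. The labels also do not say how p110g was removed or which allele was used, and they give no other allele in either group.

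p110g, encoded by Pik3cg, is the catalytic subunit of a phosphoinositide 3-kinase of leukocytes that is switched on by G protein βγ subunits below chemokine and other G protein-coupled receptors. It makes a membrane lipid that recruits Akt and other kinases, and it and its products are broken down by phosphatases such as those encoded by Inpp5d and Inpp4a. LPS is handed by CD14 to TLR4, which activates NF-kB and interferon regulatory factors, while IFNg acts through STAT transcription factors; together they drive macrophages into an inflammatory state marked by IL-12, TNF and nitric oxide.

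The 6 IFNg/LPS libraries held 40.647 to 69.603 M reads (M, megareads) over the listed genes, against 40.082 to 69.603 M over all 18, and 182 to 307 genes were listed at 0 in each. A level of 3 reads, the limit that a count of 0 allows, corresponded to a normalised count of 2.801 to 4.738, counting error only. The first principal component of the 6 libraries held 41.3% of the variance and separated the genotypes. The second held 32.6% and separated the libraries numbered 1 from those numbered 2 and 3. Below, values in the libraries of a group are normalised counts in the order of the numbers 1, 2 and 3, and fold changes are log2(p110g-/- over WT) of the value plus 1, with the standard error (SE) and the Benjamini-Hochberg adjusted p of limma.

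The targeted gene was examined first. In IFNg/LPS, Pik3cg was at 3559.5, 2309 and 2604.2 in the WT libraries and at 3691.4, 1410.5 and 2036.7 in the libraries labelled p110g-/-. The library labelled p110g-/- number 1 was thus above all 3 WT libraries, and the groups overlapped. The fold change was -0.34 (SE 0.23, adjusted p = 0.37). Without that library it was -0.71 (adjusted p = 0.0070). In M-CSF and in IL-4 the groups did not overlap: Pik3cg was 4993.5 to 5330.3 in WT and 1887.5 to 2045.8 in p110g-/- cells in M-CSF, and 2952.9 to 3280.5 against 955.6 to 1083.3 in IL-4. The genotype difference in IL-4 was larger than in IFNg/LPS, with a difference of fold changes of 1.29 (adjusted p = 0.035).

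By Pik3cg, then, 1 library went against its label, so its place was checked on other genes. In M-CSF and IL-4, 99 genes differed by genotype in the same direction in both stimuli, by at least 1 on the log2 scale. Of these, 67 were lower and 32 higher in p110g-/- cells. In the 3 libraries labelled p110g-/- with IFNg/LPS, the 67 genes lay at a median of -1.75, -1.68 and -1.70 relative to the WT IFNg/LPS mean. The 32 genes lay at 1.49, 1.39 and 1.30. Of the 99 genes, 88, 87 and 91 were outside the range of the WT IFNg/LPS libraries on the p110g-/- side in the libraries numbered 1, 2 and 3. On these genes, library 1 lay with the libraries numbered 2 and 3. Without p110g-/- library 1, called library 1 below, the call ended for Pycard, Stat4, Ikbkg, Adora2a and Cd4 among the called genes named below. For the genes with the largest changes the value without it is given, as are list counts that moved by more than 1.5 times without it or with the block by replicate number.

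**Figure D1:**
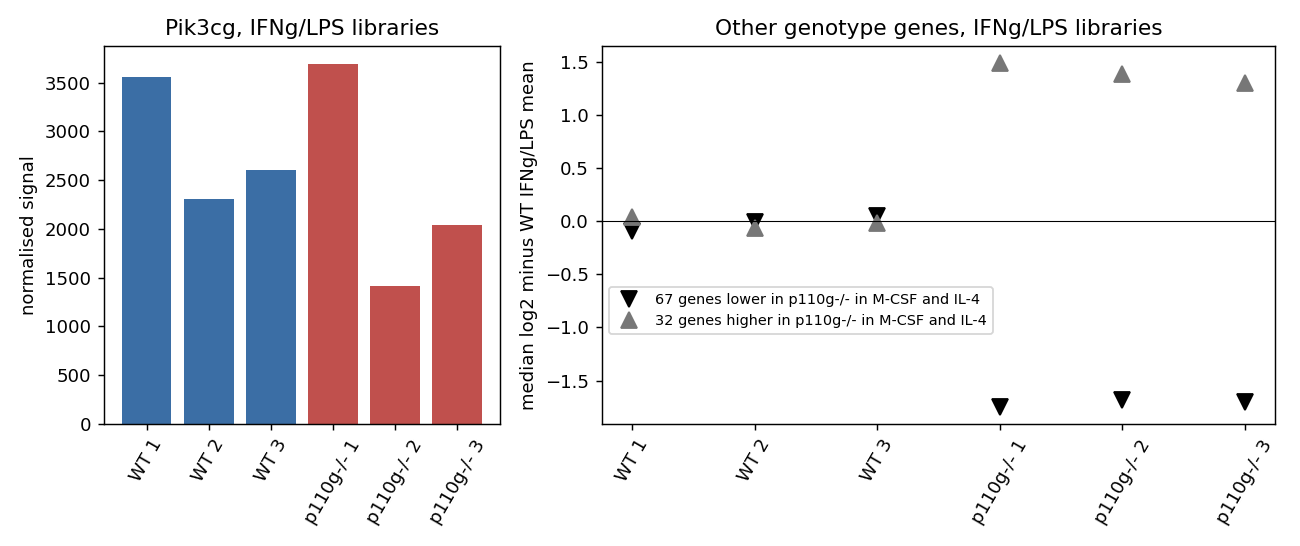
The bars show the Pik3cg level (normalised count) in each of the 6 IFNg/LPS libraries; the points show, for the same libraries, the median log2 difference from the WT IFNg/LPS mean of the 67 and 32 genes that differed by genotype in both M-CSF and IL-4. Pik3cg in the library labelled p110g-/- number 1 stands at 3691.4, above every WT library, while its medians of -1.75 and 1.49 lie beside those of the other libraries labelled p110g-/-.

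Across all genes, 2303 passed the test, 14.7% of those tested: 1085 were higher in p110g-/- macrophages (6.94%) and 1218 were lower (7.79%). The differences were mostly moderate. The median fold change was 0.48 among the higher genes and -0.52 among the lower genes, and 0.00 over all genes. A change of at least 1 on the log2 scale was reached by 166 higher and 295 lower genes, and a change of at least 2 by 36 and 76. In 2140 of the 2303, the 3 libraries of one group did not overlap the other 3, and 28.2% of all tested genes did not overlap. Without the library labelled p110g-/- number 1, 2488 genes passed (1247 higher, 1241 lower); 1853 of the 2303 were among them, and none of the 2303 changed sign. Leaving out the p110g-/- library numbered 2 lowered the count to 1466, and a fit of the 6 IFNg/LPS libraries alone lowered it to 708.

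**Figure D2:**
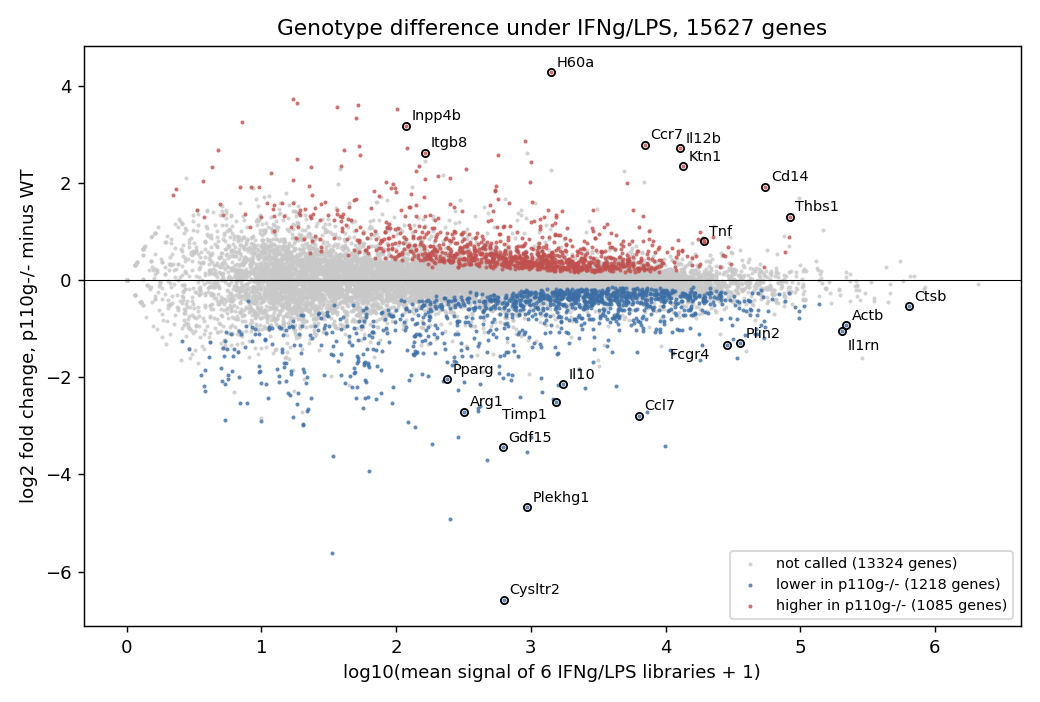
Each point is 1 of the 15627 tested genes, with the mean normalised count over the 6 IFNg/LPS libraries on a log10 axis and the log2 fold change of p110g-/- over WT on the vertical axis; colours mark genes called higher (1085), lower (1218) or not called. Cysltr2 lies lowest among the labelled genes at -6.58 and H60a highest at 4.28.

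The largest fall was that of Cysltr2 (Entrez gene 70086), a receptor for cysteinyl leukotrienes. It was at 1764.2, 1047.6 and 936.5 in the WT libraries and at 12.8, 7.6 and 15.6 in the p110g-/- libraries. All 3 p110g-/- libraries were thus far below all WT libraries, at -6.58 (SE 0.29, adjusted p = 2.0e-09) and at -6.65 without library 1. Plekhg1 fell from 1697.8, 1804.8 and 1929.9 to 61.6, 76.9 and 71.1 (-4.68, SE 0.30, adjusted p = 8.2e-08; -4.59 without library 1). Lipg, the endothelial lipase, fell from 2053.6, 1723.6 and 1339.2 to 209.3, 82.6 and 171.5 (-3.54, SE 0.70, adjusted p = 0.0034; -3.81 without library 1). Gdf15, a stress-induced member of the TGF-beta family, was at 785.4, 1261.4 and 1374 in WT and 86.1, 138.6 and 86.7 in p110g-/- libraries (-3.44, SE 0.51, adjusted p = 0.00042; -3.33 without library 1). None of these groups overlapped, but the largest changes were picked among genes without overlap, so this is no separate result. Hdac9, a class II histone deacetylase, fell by 3.38 (adjusted p = 6.5e-05), and Slc18a1, a vesicular monoamine transporter, fell by 3.24 (adjusted p = 6.3e-07). Csrp1, an actin-associated LIM protein gene, was chosen after its values were seen: it fell from 11463.8, 13833.6 and 12665.8 to 1482.9, 2248.6 and 2152.6 (-2.71, adjusted p = 2.4e-08).

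The largest rise was that of H60a, which encodes a ligand of the NK cell receptor NKG2D. It was at 144.7, 134.5 and 132.7 in WT and at 2545.9, 2576 and 2937.1 in p110g-/- libraries (4.28, SE 0.10, adjusted p = 3.0e-13; 4.32 without library 1). Related genes of the same family resemble H60a, and the counting of reads that match several genes is not given in the sources used here, so its level is uncertain. Whether the WT and p110g-/- mice differed at this or other genes beyond Pik3cg was not tested. Cacna1a, a voltage-gated calcium channel subunit, rose from 107.8, 311.9 and 292.2 to 1384, 1704.7 and 1642 (2.87, SE 0.27, adjusted p = 7.3e-06; 2.96 without library 1). Ktn1, the kinesin receptor of the endoplasmic reticulum, rose from 5236.6, 4230.6 and 3899.2 to 23840.8, 26131.5 and 18118.5 (2.34, SE 0.12, adjusted p = 6.2e-09; 2.30 without library 1). Every p110g-/- library was above every WT library for these 3 genes. The rule that picked the largest changes required groups without overlap, so this adds no support. Among the genes with the smallest adjusted p, Fam32a rose from 3837, 4158.7 and 4099.8 to 8565.6, 8500.7 and 8758.6 (1.09, adjusted p = 4.2e-09). Apbb3, an amyloid precursor protein-binding adaptor, rose by 1.86 (adjusted p = 1.4e-08). Actb, the cytoskeletal actin often used as a reference transcript, was not constant: it fell from 274965, 312961 and 274316 to 150458, 156176 and 146374 (-0.93, SE 0.10, adjusted p = 3.4e-05).

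The sequence just upstream of the start was read for genes of the RefSeq promoter table, mouse build GRCm38.p6, from 250 bases before to 50 after the start, to set the bases beside the direction of change. Cysltr2 is shown because it fell most. Tlr8, an endosomal receptor, and Tfec, a macrophage transcription factor, are shown for the 5 and 4 matches to the C/EBP motif in their windows. These were the highest counts in a ranking of the named genes called lower, which left out a chromosome. Others in that ranking, such as Pparg and Plin2, held 0 matches, and windows of higher genes were not ranked. C/EBP factors are the partners of PU.1 in macrophage genes. Each sequence is 5′ to 3′ on the gene's own minus strand, and capitals mark matches to the C/EBP motif TTNNGNAA or the NF-kB motif, GGG and CC with any 5 bases between them, on either strand; in Tfec, the longer block of capitals is the NF-kB match, and the Cysltr2 window held no match to either.
Cysltr2 promoter, chr14:73049065-73049364: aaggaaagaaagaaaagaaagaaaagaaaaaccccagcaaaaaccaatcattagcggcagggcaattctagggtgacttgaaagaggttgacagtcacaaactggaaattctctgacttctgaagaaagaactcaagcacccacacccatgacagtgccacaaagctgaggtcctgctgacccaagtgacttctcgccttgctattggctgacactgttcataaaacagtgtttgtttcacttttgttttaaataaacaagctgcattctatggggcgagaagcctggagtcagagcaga
Tlr8 promoter, chrX:167264280-167264579: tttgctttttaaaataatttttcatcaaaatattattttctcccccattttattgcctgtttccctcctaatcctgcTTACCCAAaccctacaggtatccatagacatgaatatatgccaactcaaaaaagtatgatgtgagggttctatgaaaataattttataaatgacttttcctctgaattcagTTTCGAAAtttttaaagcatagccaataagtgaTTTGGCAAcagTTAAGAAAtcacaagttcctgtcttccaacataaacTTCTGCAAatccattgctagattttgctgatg
Tfec promoter, chr6:16898392-16898691: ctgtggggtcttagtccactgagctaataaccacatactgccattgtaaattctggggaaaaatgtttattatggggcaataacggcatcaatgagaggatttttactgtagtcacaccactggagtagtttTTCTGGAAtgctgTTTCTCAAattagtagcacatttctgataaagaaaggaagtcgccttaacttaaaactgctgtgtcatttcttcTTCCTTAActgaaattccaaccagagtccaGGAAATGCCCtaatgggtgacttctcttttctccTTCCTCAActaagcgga

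Of the tested genes, 11494 had a promoter window in that table, 836 of them higher and 919 lower in p110g-/- cells. TTNNGNAA stood in 32.7% of all windows, 26.7% of those of higher genes and 38.3% of those of lower genes. The windows also differed in base composition, with a median GC content of 60% over all windows, 62.0% for higher genes and 58.3% for lower genes, and the motif is poor in G and C. Among windows of under 50% GC, the motif stood in 61.4% of all, 50.0% of higher and 64.5% of lower genes. From 50% to under 60% GC, the shares were 41.1%, 37.5% and 46.6%. At 60% GC or more, they were 18.3%, 17% and 18.8%. The other motifs were searched on both strands as well. The NF-kB motif stood in 65.5%, 67.8% and 65.3% of all, higher and lower genes. TGANTCA (AP-1) stood in 5.53%, 4.43% and 6.42%, and the IRF motif, TTTC repeated after any 2 bases, in 3.28%, 2.27% and 3.70%. TGACGTCA (CRE) stood in 3.14%, 2.99% and 2.94%, and CACGTG (E-box) in 9.80%, 10.4% and 10.6%. These shares are descriptions without a test.

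Genes of the PI3K pathway were read in 4 lists, beside 6.94% called higher and 7.79% called lower over all tested genes. Of 15 tested genes for class I PI3K subunits and their G protein partners, none rose and 1 fell, with a median of -0.04. The catalytic subunit genes Pik3ca, Pik3cb and Pik3cd were at -0.02, 0.04 and 0.03, and the p110g adaptor genes Pik3r5 and Pik3r6 were at -0.06 and 0.13. None of these 5 passed the test. The 1 called member was Gng5, a G protein gamma subunit (-0.36), whose call ended when WT library 2 (adjusted p = 0.11), WT library 3 (0.15) or p110g-/- library 2 (0.16) was left out. Among 16 phosphoinositide phosphatases, 1 rose and 2 fell (2 and 2 without library 1). Inpp4b, which removes a phosphate from products of PI3K, was at 23.6, 17.7 and 26.8 in WT and at 226.8, 196.5 and 209.5 in p110g-/- libraries. It was higher in each p110g-/- library (3.18, SE 0.38, adjusted p = 5.7e-05), and without library 1 the change was 3.12 (adjusted p = 0.00033). Its relative Inpp4a moved the other way, from 2539.3, 2410.8 and 2422.6 to 1901.5, 1720.8 and 1800.8 (-0.44, SE 0.064, adjusted p = 0.00033). Inpp5d, which encodes the phosphatase SHIP1, fell from 18752.4, 18468.5 and 18624.3 to 15861.3, 13715.5 and 13660.3 (-0.37, adjusted p = 0.0054; 0.062 in the 6 libraries alone). Of 22 Akt, mTOR and FoxO genes 1 rose and 2 fell (1 and 1 without library 1, 2 and 1 with the block). Of 14 FoxO targets 1 rose and 0 fell, against 2 and 3 without library 1 and 1 and 1 with the block. The called target, the insulin receptor gene Insr, was at 0.36 (adjusted p = 0.014), and its call ended when either library numbered 2 was left out (0.051 without WT, 0.064 without p110g-/-).

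Among cytokine genes, Il12b and Tnf rose, and Il10 and several IL-1 family genes fell. The counts of this and the following lists stand beside 6.94% called higher and 7.79% called lower over all tested genes. Il12b, the shared subunit of IL-12 and IL-23, was at 6736.5, 2405.2 and 2007.3 in WT and at 30984, 20297 and 14779 in p110g-/- libraries. The groups did not overlap (2.72, SE 0.55, adjusted p = 0.0042), and library 1 was the highest of each group; without the one labelled p110g-/- the change was 2.44 (adjusted p = 0.015). Of the 4 tested IL-12 family genes 1, Il12b, was called; with the block 2 rose, and without library 1, 1 rose and 1 fell. Il12a, the partner subunit, was at 2.44 (adjusted p = 0.055; 0.015 with the block by replicate number). Of 22 TNF and TNF receptor family genes 4 rose and 1 fell. Tnf was at 16198.4, 13235.1 and 12496.8 in WT and at 21913.6, 27172.7 and 24018 in p110g-/- libraries (0.81, SE 0.18, adjusted p = 0.0072; 0.88 without library 1). Tnfsf13b, the B cell survival factor BAFF, rose from 116.6, 118.6 and 101.1 to 261.7, 209.8 and 183.2 (0.94, adjusted p = 0.0037). In the IL-6 and IL-10 list of 12 genes, 1 fell, Il10, against 3 without library 1 and 3 with the block. Il6 was at 6662.7, 1154 and 1255.5 in WT and at 21115.8, 4528.5 and 6750.2 in p110g-/- libraries. Its groups overlapped, and it did not pass (2.02, SE 0.77, adjusted p = 0.094). The adjusted p was 0.28 without library 1, 0.11 with the block and 0.00021 with libraries numbered 2 and 3 only. Il10 was at 4677, 1704.9 and 1740.4 in WT and at 1557.3, 200.3 and 518.4 in p110g-/- libraries (-2.14, adjusted p = 0.041; -2.89 without library 1). The call ended in 9 of the 18 alternatives: leaving out any 1 WT library gave an adjusted p of 0.060 to 0.13, p110g-/- library 2 gave 0.20 and p110g-/- library 3 gave 0.091.

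The called genes of the IL-1 and inflammasome list all went down: of 19 tested genes 10 fell and none rose, with a median of -0.34; with the block 10 fell and 2 rose. The count was 7 when the library labelled p110g-/- number 1 was left out, and 6, 4 and 4 when WT library 2, WT library 3 or p110g-/- library 2 was. Il1rn, the IL-1 receptor antagonist, was among the most abundant genes. It was at 295700.0, 281188 and 253358 in WT and at 125900.0, 114872 and 161649 in p110g-/- libraries. The highest p110g-/- library was below the lowest WT library (-1.06, SE 0.27, adjusted p = 0.016); the call ended without the p110g-/- library numbered 2 (0.072). Casp1, the protease that processes IL-1β, fell from 46311.3, 42092.9 and 42272.3 to 35311.6, 27217.4 and 35301.5 (-0.43, adjusted p = 0.0064; 0.11 in the 6 libraries alone). Il33, an alarmin of the same family, fell from 67.9, 99 and 93.2 to 36.1, 19.9 and 23.4 (-1.70, adjusted p = 0.0071). The inflammasome adaptor Pycard was at -0.81 (adjusted p = 0.023) and Il18 at -0.73 (adjusted p = 0.023). Both calls ended when WT library 2 or 3 was left out (0.10 in each for Pycard, 0.056 and 0.060 for Il18); that of Pycard also ended without p110g-/- library 1 (0.079) and that of Il18 without p110g-/- library 2 (0.12). The inflammatory cytokine Il1b did not pass the test (1.69, adjusted p = 0.060; 0.042 with the block), nor did Il1a (0.89, adjusted p = 0.13; 0.039 with the block, and 0.016 without the WT library numbered 1).

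Several monocyte-attracting chemokines fell, while the receptor Ccr7 rose. Of 13 CC chemokines none rose and 4 fell, with a median of -0.56; 2 fell when WT library 2 or p110g-/- library 2 was left out. Ccl7 was at 10865.8, 10369.6 and 11672.4 in WT and at 2190.0, 928.3 and 1931.4 in p110g-/- libraries (-2.80, SE 0.70, adjusted p = 0.014). The call of Ccl7 ended without the p110g-/- library numbered 2, where the change was -2.41 (adjusted p = 0.071). Ccl12 fell from 1575.3, 1187.7 and 1392.9 to 402.4, 176.5 and 247.5 (-2.40, SE 0.48, adjusted p = 0.0035). Ccl8 fell from 937.5, 1369.7 and 1118.1 to 271, 316.1 and 292.3 (-1.94, SE 0.49, adjusted p = 0.014; 0.056 without the WT library numbered 2). None of these 3 genes had overlapping groups. Ccl17 and Ccl22, ligands of CCR4, were at 1.04 and 1.06 and did not pass, and Ccl2, the main ligand of CCR2, was at -1.10 and did not pass. Of 12 CXC chemokines 2 fell: Pf4, platelet factor 4, at -1.69 (adjusted p = 0.00012) and Cxcl11 at -1.03 (adjusted p = 0.028), whose call ended when any WT library (0.057 to 0.071) or p110g-/- library 2 (0.12) was left out.

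Among 17 chemotactic receptors 2 rose and 5 fell; 2 or 3 fell when WT library 2 or 3, or p110g-/- library 2 or 3, was left out. Ccr7, which directs cells to lymph nodes, was at 3925.6, 1032.7 and 979.1 in WT and at 19983, 9112 and 7189.7 in p110g-/- libraries. Library 1 was the highest in both groups, and the groups did not overlap (2.79, SE 0.56, adjusted p = 0.0039). Without the library labelled p110g-/- number 1 it was 2.35 (adjusted p = 0.015). In the 6 libraries alone its adjusted p was 0.051. Cxcr3, the receptor of interferon-induced CXC chemokines, rose from 62, 26.1 and 31.6 to 116.3, 146.2 and 165.7 (1.90, adjusted p = 0.010). Of the 5 that fell, Ccr3, the eotaxin receptor, was at -2.19 (adjusted p = 0.0059; 0.10 in the 6 libraries alone). The anaphylatoxin receptors C3ar1 and C5ar1 were at -0.55 and -0.61; the call of C5ar1 (adjusted p = 0.025) ended in the same 4 cases (0.073 to 0.10).

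**Figure D3:**
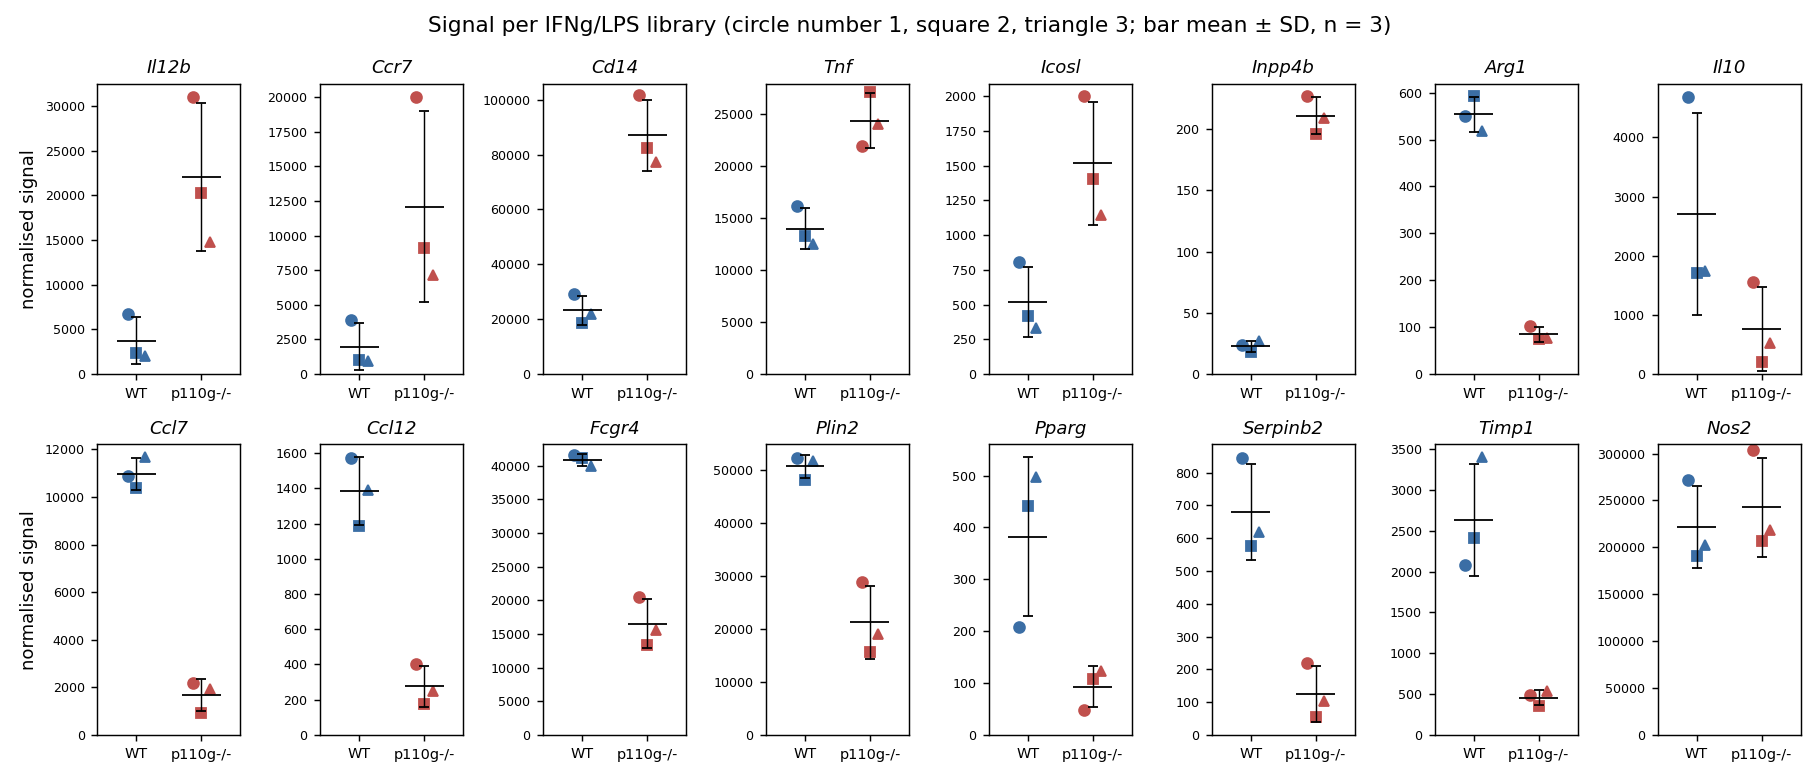
Normalised counts on a linear axis of 16 genes in each IFNg/LPS library, WT beside p110g-/-, with circles, squares and triangles for the libraries numbered 1, 2 and 3 and bars for the mean ± SD. Il12b, Ccr7, Cd14 and Inpp4b lie higher and Ccl7, Ccl12, Fcgr4, Plin2 and Timp1 lower in all 3 p110g-/- libraries, while the groups overlap for Nos2.

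In the sensing of LPS, the co-receptor and the signalling receptor moved in opposite directions. Cd14 was at 29075, 18634.7 and 21898.2 in WT and at 101670.0, 82307 and 77124.3 in p110g-/- libraries. It was higher in every p110g-/- library (1.92, SE 0.26, adjusted p = 0.00017), also without library 1 (adjusted p = 0.00087). Tlr4 was at 4588.5, 5621.8 and 5890.7 in WT and at 3178.5, 2755.4 and 3934 in p110g-/- libraries (-0.71, SE 0.13, adjusted p = 0.0016). Of 24 genes in the Toll-like receptor list 2 rose and 7 fell, the same counts as without library 1; 3 fell without p110g-/- library 2, and 1 rose without WT library 2. Tlr8 fell from 5450.6, 6046.6 and 5540.1 to 3725.2, 2510.5 and 3776.1 (-0.79, SE 0.14, adjusted p = 0.0017). The nucleic acid receptors Tlr7 and Tlr3 fell by 0.50 and 0.54 (adjusted p = 0.0069 and 0.012), and the adaptor Myd88 fell by 0.46 (adjusted p = 0.014). The calls of Myd88 and Tlr3 ended without p110g-/- library 2 (0.077 and 0.056), and that of Tlr7 in the 6 libraries alone (0.094). Ticam2, the adaptor that takes TLR4 to the interferon branch, rose by 0.73 (adjusted p = 0.0099; 0.051 without the WT library numbered 2). Of 21 NF-kB genes, 1 rose and none fell (3 rose with the block and none without library 1); it was Ikbkg, the regulatory subunit of the IkB kinase, at 0.26, and its call ended in 9 of the 18 alternatives, with 0.090 to 0.13 when WT library 1 or 2 or any p110g-/- library was left out.

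The interferon response as a list held no called gene. Of 18 IFNg-induced GTPase genes none was called, with a median of -0.30, and of 26 type I interferon genes and targets none was called, with a median of -0.26. Single members lay on both sides of those medians: Igtp was at -0.44, Gbp2 at -0.08, Ifit1 at -0.32 and Rsad2 at -0.15. Of 23 IRF, STAT and SOCS genes 2 rose and 0 fell, against 1 and 1 without library 1 and 3 and 2 with the block. Stat6, the factor of IL-4 signalling, was at 0.30 (adjusted p = 0.0018; 0.088 in the 6 libraries alone), and Stat4 was at 1.54 (adjusted p = 0.023), with its call lost when WT library 2 (0.086), WT library 3 (0.087) or p110g-/- library 1 (0.080) was left out. No gene of 22 in the MHC class I list was called, and 2 fell with the block. Of 13 MHC class II genes 3 rose and 0 fell, with a median of 0.40; 1 fell without library 1 and 1 with the block. Ciita, the master regulator of that class, was at 0.93 (adjusted p = 0.015). Leaving out WT library 3 ended the call (0.051), as did leaving out p110g-/- library 2 (0.64 on the log2 scale, adjusted p = 0.079). The genes of the chains H2-Aa, H2-Ab1 and H2-Eb1 were at 0.58, 0.61 and 0.82 and did not pass; H2-Ab1 passed with the block (adjusted p = 0.044).

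Of 19 co-stimulatory and inhibitory ligand genes 2 rose and 2 fell (4 and 3 with the block). Icosl, the ligand of the T cell receptor ICOS, was at 803.1, 421.1 and 330.1 in WT and at 2002.7, 1403.8 and 1141.1 in p110g-/- libraries, without overlap (1.61, SE 0.35, adjusted p = 0.0063; 0.051 in the 6 libraries alone). Cd83, a maturation marker, rose by 0.71 (adjusted p = 0.0053). Sirpa, the receptor of the CD47 signal, was at -0.42, and its call ended without the WT library numbered 3 (adjusted p = 0.061) and without the p110g-/- library numbered 2 (0.10) or 3 (0.057).

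Arginine is used by inducible nitric oxide synthase and by arginase; the arginase gene fell and the synthase gene did not pass the test. Of 18 tested genes of arginine, nitric oxide and polyamine metabolism 3 rose and 3 fell. Arg1, cytosolic arginase, was at 550.7, 592.9 and 518 in WT and at 103.5, 74 and 77 in p110g-/- libraries, without overlap (-2.71, SE 0.45, adjusted p = 0.00099; -2.86 without library 1). Odc1, which makes putrescine from ornithine, fell by 0.59 (adjusted p = 0.0045), and Sat1, which breaks polyamines down, fell by 0.56 and was at an adjusted p of 0.078 in the 6 libraries alone. Slc7a2, a transporter that brings arginine into macrophages, rose from 73661.9, 44908 and 54631.7 to 122217, 93972.3 and 101810.0 (0.90, adjusted p = 0.014; 0.073 without the WT library numbered 2). Nos2, the nitric oxide synthase, was at 272141, 191041 and 202085 in WT and at 303567, 206623 and 218172 in p110g-/- libraries. These groups overlapped, and Nos2 did not pass (0.13, adjusted p = 0.91).

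The receptors for antibody were the list with the largest share of called genes among those with at least 8 tested: of 8 Fc receptor genes none rose and 6 fell, with a median of -0.80, and 7 fell without library 1. Fcgr4, an activating receptor, was at 41505.8, 41148 and 39892.4 in WT and at 20541.3, 13419.3 and 15521.5 in p110g-/- libraries. All 3 p110g-/- libraries were far below the narrow WT range (-1.33, SE 0.21, adjusted p = 0.00060; -1.50 without library 1). Fcgr3 fell by 0.62 (adjusted p = 0.0058), and the high-affinity receptor Fcgr1 fell by 0.92 (adjusted p = 0.015; 0.074 without p110g-/- library 2 and 0.051 without WT library 3). Fcrls, an Fc receptor-like gene of resident macrophages, fell by 2.59 (adjusted p = 0.0021; 0.062 in the 6 libraries alone), and Fcrl1 fell by 1.39 (adjusted p = 0.0049). Fcgr2b, the inhibitory receptor, and Fcgrt, the recycling receptor, were at -0.67 and -0.64 and did not pass; Fcgr2b passed without library 1 (adjusted p = 0.0068) and Fcgrt with the block (0.0085).

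Macrophage identity and scavenger genes were also called lower. In these bulk libraries, fewer cells of a type and less RNA per cell cannot be told apart. Of 16 macrophage identity genes 2 rose and 8 fell, with a median of -0.48, and the same counts held without library 1. The lower count was 5, 4 and 5 when WT library 2, WT library 3 or p110g-/- library 2 was left out. The gene of PU.1, listed as Sfpi1, fell by 0.35 (adjusted p = 0.0062; 0.079 in the 6 libraries alone). Csf1r, the M-CSF receptor, was at 0.26 (adjusted p = 0.040), and its call ended when WT library 1 (0.090) or 2 (0.13) or p110g-/- library 2 (0.17) or 3 (0.054) was left out. In the wider list of 34 macrophage transcription factors 2 rose and 3 fell (4 and 4 without library 1, 2 and 5 with the block); Hivep3 rose by 1.11 (adjusted p = 0.0021) and Bhlhe40 by 0.80 (adjusted p = 0.020; 0.084 without the p110g-/- library numbered 2). Of 29 scavenger and lectin receptor genes none rose and 6 fell, with a median of -0.12; 10 fell with the block by number, 2 without WT library 2 or 3 and 3 without p110g-/- library 3. Cd5l, a secreted scavenger protein, fell from 6169.6, 5415.4 and 6080.2 to 1722.4, 2094.8 and 2542.4 (-1.49, adjusted p = 0.00079). Mrc1, the mannose receptor, was at -0.89 (adjusted p = 0.011; 0.057 in the 6 libraries alone). Trem2, a lipid-sensing receptor, was at -1.02 (adjusted p = 0.013; -0.67 without library 1, 0.038), with its call lost when WT library 2 or 3 was left out (0.063 in each).

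In the complement and lysosome lists, the called genes were lower, beside 6.94% called higher and 7.79% called lower over all tested genes. Of 16 complement genes none rose and 6 fell. The count was 3 without WT library 2 or p110g-/- library 1, and 2 without WT library 3 or p110g-/- library 2. Cfp, properdin, fell by 1.03 (adjusted p = 0.0088). Cd55, which speeds the decay of complement enzymes on the cell surface, was at 78.2, 49.5 and 93.2 in WT and at 27.9, 9.5 and 27.3 in p110g-/- libraries (-1.82, adjusted p = 0.013; 0.072 without the p110g-/- library numbered 2 and 0.054 without the WT library numbered 3). Of 46 lysosomal enzyme and membrane genes none rose and 15 fell, with a median of -0.20; without library 1, 1 rose and 10 fell, and without WT library 2 or 3, 7 or 9 fell. Lgmn, the protease legumain, fell by 0.96 (adjusted p = 0.00012), and Gla, an alpha-galactosidase, fell by 0.49 (adjusted p = 0.0021). The proton pump that acidifies the lysosome had 2 of 17 subunit genes lower (1 without library 1) and none higher. Beside 7.79% over all tested genes, so few calls give no result for the pump as a whole. The lowest subunit gene was Atp6v1b2 at -0.77 (adjusted p = 5.7e-05). Of 16 genes of the MiT/TFE factors and their regulators none rose and 5 fell; 3 fell when WT library 2 or 3 or p110g-/- library 1 or 3 was left out, and 8 without WT library 1. Tfec was at 630.4, 622.8 and 784.9 in WT and at 386.1, 364.5 and 409.3 in p110g-/- libraries, without overlap (-0.80, adjusted p = 0.0040). Flcn and Fnip1, which form the folliculin complex, fell by 0.52 and 0.40; their adjusted p was 0.055 and 0.083 in the 6 libraries alone.

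**Figure D4:**
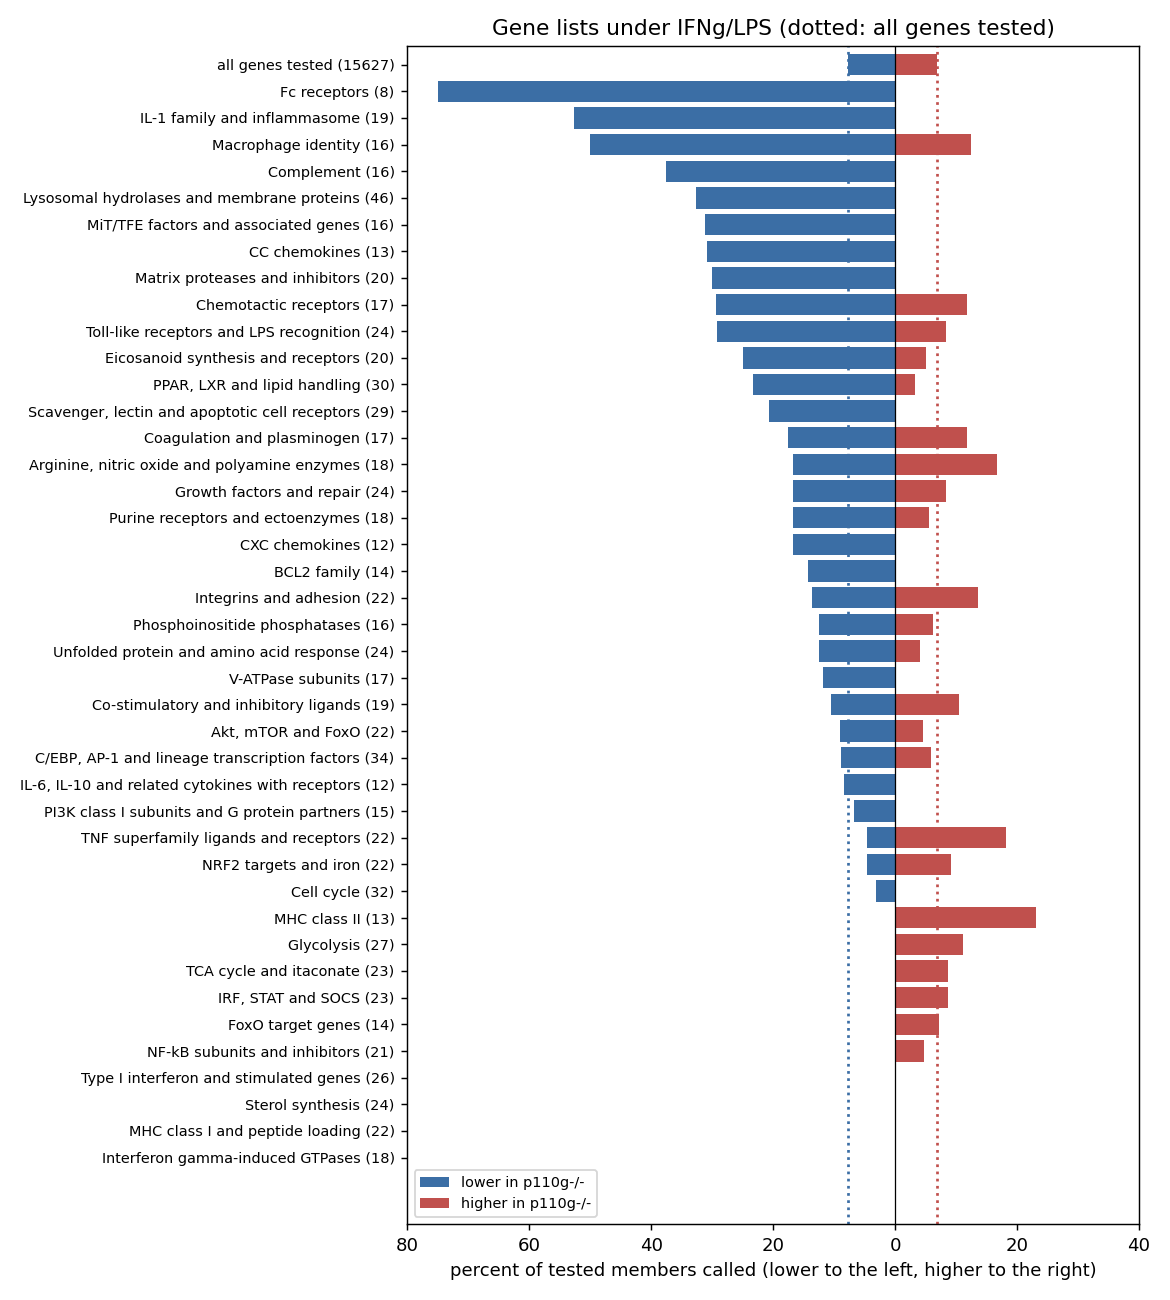
For each gene list with at least 8 tested genes, bars give the percent of tested genes called higher and called lower in p110g-/- macrophages with IFNg/LPS; dotted lines mark the shares over all genes, 6.94% and 7.79%. The Fc receptor list shows 6 of 8 genes lower, and the IL-1 and inflammasome list 10 of 19.

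Among genes of lipid handling, Plin2, Pparg and Lpl fell. Of 30 PPAR, LXR and lipid storage genes 1 rose, 7 fell and 22 were not called, with a median of -0.09. Plin2, a coat protein of lipid droplets, was at 52235.8, 48145.1 and 51661.1 in WT and at 28851, 15675.5 and 19126.1 in p110g-/- libraries, all below WT (-1.30, SE 0.17, adjusted p = 0.00012; -1.55 without library 1). Pparg, a fatty acid receptor of alternatively activated macrophages, fell from 208.2, 441.6 and 497.5 to 47.7, 107.3 and 123.8 (-2.04, adjusted p = 0.00047; 0.054 in the 6 libraries alone). Lpl, lipoprotein lipase, fell from 31500.6, 53658.6 and 46459 to 11320.8, 23806.1 and 23671.1 (-1.21, adjusted p = 0.0052; 0.090 in the 6 libraries alone). None of 24 sterol synthesis genes was called, and 3 rose with the block. Of 20 eicosanoid genes 1 rose and 5 fell (0 and 5 without library 1). Pla2g4a, which frees arachidonic acid, was at -0.45, and its call ended when WT library 3 (adjusted p = 0.062) or p110g-/- library 2 (0.095) was left out. Cysltr1, the other leukotriene receptor beside Cysltr2, was at -0.76, with its call lost when WT library 2 (0.054), WT library 3 (0.070) or p110g-/- library 2 (0.12) was left out.

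Called genes of matrix proteases and inhibitors were lower, and those of clotting control went in both directions. Of 20 matrix protease and inhibitor genes none rose and 6 fell. Timp1, an inhibitor of metalloproteinases, was at 2078.7, 2410.8 and 3404.9 in WT and at 482.7, 350.2 and 536 in p110g-/- libraries, without overlap (-2.52, SE 0.32, adjusted p = 0.00011; -2.57 without library 1). Mmp27 fell by 2.20 (adjusted p = 0.00058) and Mmp19 by 0.71 (adjusted p = 0.0024). Of 17 coagulation and fibrinolysis genes 2 rose and 3 fell (4 and 3 with the block). Serpinb2, which inhibits urokinase, was at 845.9, 575.2 and 619.1 in WT and at 219.8, 54.1 and 103.3 in p110g-/- libraries (-2.63, SE 0.42, adjusted p = 0.00073; -3.15 without library 1). The cross-linking factor F13a1 fell by 1.98 (adjusted p = 0.00012), and thrombomodulin, Thbd, fell by 0.99 (adjusted p = 0.00010). Thbs1, thrombospondin 1, rose by 1.31 (adjusted p = 0.0017). Plat, tissue plasminogen activator, rose from 36.9, 26.1 and 28.4 to 212.8, 94.9 and 96.5 (2.02, adjusted p = 0.0071). Of 24 growth factor and matrix genes 2 rose and 4 fell; beside Gdf15, Pdgfc fell by 1.41, and Tgfb1 was at -0.07 (adjusted p = 0.76).

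Of 22 integrin and adhesion genes 3 rose and 3 fell, and without library 1, 5 rose and 3 fell. Itgb8, whose product activates latent TGF-beta, was at 44.3, 41.1 and 49 in WT and at 282.6, 318.9 and 242.6 in p110g-/- libraries, without overlap (2.62, SE 0.25, adjusted p = 7.0e-06; 2.61 without library 1). Itga4, the alpha chain of a receptor for VCAM-1, rose by 0.97 (adjusted p = 0.0020; 0.058 in the 6 libraries alone). Itgam, which encodes CD11b, fell from 78694.7, 59086.1 and 66888.4 to 56915.9, 27514.4 and 34587.2 (-0.84, adjusted p = 0.015; 0.084 without p110g-/- library 2 and 0.054 without p110g-/- library 3).

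The metabolic and stress lists are given next, without a set test. Over all tested genes, 6.94% were called higher and 7.79% lower. Of 27 glycolysis genes 3 rose and none fell. Hk2, hexokinase 2, was at 7101.2, 5225 and 5533.8 in WT and at 11870.9, 9694.8 and 9375.5 in p110g-/- libraries, without overlap (0.80, adjusted p = 0.0054). Of 23 tricarboxylic acid cycle genes 2 rose (4 without library 1), of which Sucla2 was at 0.35 (adjusted p = 0.0028; 0.066 in the 6 libraries alone). Of 22 NRF2 target genes 2 rose and 1 fell (2 and 3 without library 1, 4 and 3 with the block); Slc7a11, the cystine importer, rose from 15141.3, 11494.7 and 13584.9 to 25414.3, 23352.4 and 24307.4 (0.87, adjusted p = 0.0043). Of 24 unfolded protein response genes 1 rose and 3 fell (0 and 3 without library 1), with Ddit3, a factor of prolonged stress, at -0.78 (adjusted p = 0.0023). Of 32 cell cycle genes 1 fell, Pcna at -0.68 with an adjusted p of 0.075 in the 6 libraries alone; 3 fell without library 1, and with the block 1 rose and 2 fell. Of 14 BCL2 family genes 2 fell and 0 rose (1 rose with the block), with Bcl2l1, which protects from apoptosis, at -0.49 (adjusted p = 0.0065). Of 18 purine metabolism and receptor genes 1 rose and 3 fell (0 and 3 without library 1, 1 and 5 with the block). Adora3, an adenosine receptor, was at 298.2, 261.4 and 229 in WT and at 150.0, 38.9 and 48.7 in p110g-/- libraries (-1.97, adjusted p = 0.0029; 0.066 in the 6 libraries alone). Adora2a, the receptor that raises cyclic AMP, was at 0.94 (adjusted p = 0.014), with its call lost when WT library 2 (0.073), WT library 3 (0.066) or p110g-/- library 1 (0.051) was left out.

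The libraries were also checked for other cell types. Macrophage markers were present in every library, and none of 11 neutrophil, 5 B cell or 9 stromal marker genes was called. With the block, 2 neutrophil markers fell and 1 stromal marker rose, and without library 1, 1 neutrophil marker fell. Their levels were not all alike, however: the summed neutrophil markers, mostly S100a8, were at 2784.3 to 3891.2 in WT and 1283.4 to 2197.4 in p110g-/- libraries, with Elane and Retnlg at 0 in all 6. The summed T and NK cell markers were at 537 to 649.9 and 350.1 to 468.8, and 1 of 5 tested fell (0 without library 1), Cd4, which leads the sum; Gzma was at 0 in all 6. Summed mast cell and basophil markers were at 24.3 to 34 and 9.4 to 13.6, and 2 of 3 tested fell. Of 9 dendritic cell markers 1 rose (2 with the block), Ccr7, and Cd209a was at 0 in all 6. Of 6 osteoclast markers 1 rose (2 without library 1), Dcstamp, at 1.58 (adjusted p = 0.0074; 0.077 in the 6 libraries alone). Erythroid markers were at or near 0, between 2.9 and 11.2 in sum, and none was tested. The part of such cells in the results above was not tested.

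The genotype difference was then set beside that in M-CSF and in IL-4, where the same test called 365 (2.34%; 1.06% higher and 1.27% lower) and 520 (3.33%; 1.34% higher and 1.99% lower) genes. The tests of the difference itself, between the genotype effect in IFNg/LPS and in another stimulus, called 381 genes (2.44%) against M-CSF, 1.02% more positive and 1.42% more negative in IFNg/LPS. Against IL-4 they called 888 (5.68%), 2.83% more positive and 2.85% more negative. These 2 tests share the IFNg/LPS libraries. The genotype comparisons of the 3 stimuli share no library: 148 genes were called in the same direction in all 3, 46 higher and 102 lower. Of the IFNg/LPS calls, 8.77% were also called in the same direction in M-CSF, which is 55.3% of the M-CSF calls, and 9.16% in IL-4, which is 40.6% of the IL-4 calls.

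The genes named next were picked for their contrast between stimuli after their values were seen. Ktn1 had genotype log2 differences of 0.05 in M-CSF and -0.11 in IL-4, against 2.34 in IFNg/LPS. The difference of effects was 2.30 against M-CSF (adjusted p = 3.6e-06) and 2.46 against IL-4 (adjusted p = 2.0e-06). Fam32a was at 0.00, 0.04 and 1.09, with differences of 1.09 and 1.05 (adjusted p = 3.6e-06 and 2.0e-06). Cd14 was at -0.28, -0.54 and 1.92, with differences of 2.21 (adjusted p = 0.0049) and 2.47 (adjusted p = 0.0019). Inpp4b was at -1.10, -0.48 and 3.18; its values in M-CSF were 119.8, 41.1 and 44.4 in WT and 37.9, 17.5 and 31.4 in p110g-/- libraries. Thus none of these 4 genes passed in M-CSF or IL-4.

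Downward, Timp1 was at 0.66 in M-CSF and -0.57 in IL-4 against -2.52 in IFNg/LPS, with differences of -3.18 (adjusted p = 0.0022) and -1.94 (adjusted p = 0.023). Serpinb2 was at 1.16 and 1.52 against -2.63, with differences of -3.79 (adjusted p = 0.0037) and -4.16 (adjusted p = 0.0017). Plin2 was at 44386.7 to 65320.1 across both genotypes in M-CSF, and its genotype effect in IFNg/LPS differed from the others (-1.15 against M-CSF, adjusted p = 0.019, and -1.23 against IL-4, adjusted p = 0.0090). Pparg was at 3923.2 to 5149.4 in WT and 4495.7 to 5217.2 in p110g-/- libraries in M-CSF, and the differences were -2.11 (adjusted p = 0.020) and -2.35 (adjusted p = 0.0076).

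Other genes moved in every stimulus. Cysltr2 fell in M-CSF (-2.12) and IL-4 (-2.52) and further in IFNg/LPS (-6.58). Its WT level was 60.3 to 69.1 in M-CSF, 96 to 116.1 in IL-4 and 936.5 to 1764.2 in IFNg/LPS, while the p110g-/- level was 7.6 to 23 in all 9 libraries. Gdf15 was at -2.84, -2.58 and -3.44 in M-CSF, IL-4 and IFNg/LPS, and neither difference of effects passed the test (adjusted p = 0.73 and 0.55). Actb was at -0.80, -0.73 and -0.93, again with neither difference passing (adjusted p = 0.73 and 0.47). H60a rose in all 3, by 5.76, 5.52 and 4.28, and Hddc3, a hydrolase gene, by 2.51, 3.21 and 2.36. The 148 genes called in all 3 were 0.947% of all tested genes. Chromosome 8 held 23 among 718 tested genes (3.20%), chromosome 2 held 24 among 1075 (2.23%), chromosome 14 held 9 among 450 (2.00%) and chromosome 19 held 9 among 492 (1.83%). Many of those on chromosome 2 were near-identical zinc finger genes such as Gm14325 (-2.26), whose reads could have been split between copies. Among 32 tested genes of the 50 nearest neighbours of Pik3cg on chromosome 12 in RefSeq gene order, 1 was higher and 6 were lower in IFNg/LPS, 21.9% against 14.7% of all tested genes, and 2 of them, Acp1 and Hdac9, were called in all 3 stimuli.

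**Figure D5:**
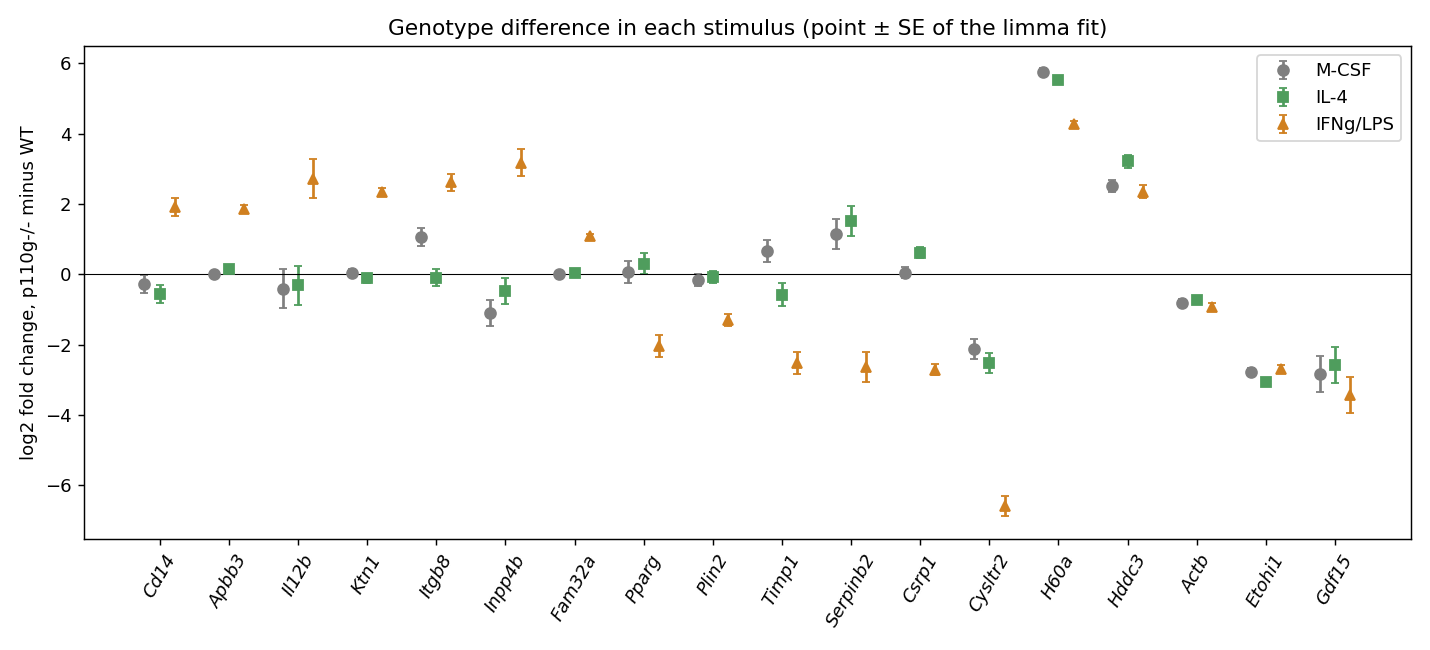
Genotype log2 fold change (p110g-/- over WT) ± SE of 18 genes in M-CSF, IL-4 and IFNg/LPS, 3 libraries a group, chosen after their values were seen. Ktn1, Fam32a and Cd14 lie highest in IFNg/LPS, above 0, and Timp1, Serpinb2 and Plin2 lie lowest there, below 0. Serpinb2 is above 0 in M-CSF and IL-4 (1.16 and 1.52), and Timp1 is at 0.66 and -0.57. H60a, Hddc3, Actb and Gdf15 keep 1 side in all 3 stimuli.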

How the data were processed

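RNA was measured in 18 libraries of mouse bone marrow derived macrophages, 3 in each of 6 groups of genotype and stimulus. Per the labels' protocols, RNA was extracted with TRIzol and libraries were made from total RNA for Illumina sequencing. The submitters' processing notes name CASAVA 1.8.2, Bowtie2, DESeq and the mouse build mm9; the counting step, its strand setting, the annotation and the other versions are not given in the sources used here. The authors deposited 1 table of normalised signal per gene and library. In every library, 100% of these deposited values were whole multiples of 1 read within 0.1, so the signal is a read count divided by a library factor, and total reads were recovered from it. No other column of sample values was present (0).

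Values were taken as log2(value + 1), and genes reaching 10 in 3 libraries or more were tested with limma 3.58.1 (R 4.3.3; trend and robust moderation) in a model of 6 group means on 18 libraries with 12 residual degrees of freedom (df). The threshold was a Benjamini-Hochberg adjusted p of 0.05 over all tested genes; all tests are two-sided. Genes that passed are called. The pseudocount of 1 understates the change of low genes. The test was tried before use on simulated counts that held no effect of the replicate number. It therefore does not show how the test performs where libraries of 1 number deviate together, as they did here.

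Alternatives were pseudocounts of 0.5 and 10, no filter, a filter on the IFNg/LPS libraries, TMM factors, edgeR 4.0.16 and DESeq2 1.42.0 on the recovered reads, no moderation by trend, a block by replicate number (10 residual df), libraries numbered 2 and 3 only, the 6 IFNg/LPS libraries alone (4 residual df) with and without the block, and leaving out each of the 6 libraries. Deviations from the group means were correlated over genes between WT and p110g-/- libraries in IFNg/LPS. Same-numbered libraries were at 0.55, 0.34 and 0.26 for numbers 1, 2 and 3, each above 0.1. Unlike numbers were also above 0.1 for WT 2 with p110g-/- 3 (0.17) and WT 3 with p110g-/- 2 (0.20). Pairs of number 1 with 2 or 3 were at -0.40 to -0.32. Libraries numbered 1 thus deviated together, and numbers 2 and 3 were less distinct from each other. The main model has no term for the number; values from the block are given where they change a named gene's call or move a list count by over 1.5 times.

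The members of the comparison, the 50 gene lists (913 symbols, 875 tested) and the tests were chosen with earlier results of these data known; lists came from textbook knowledge, and no set test was made. Named genes were a fixed list, the 10 largest changes per direction with non-overlapping groups and a mean of at least 100, the 5 smallest adjusted p and the 5 highest levels per direction, and up to 3 called genes of each list; other genes named were chosen after their values were seen. Promoters came from RefSeq, build GRCm38.p6, which is not the authors' build, so no deposited position was used.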

Additional observations from a re-analysis of the deposited data

Results flagged for a closer look

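For 20 genes and Pik3cg, the genotype effect in IFNg/LPS differed from that in another stimulus. The test was the interaction term of the limma model, adjusted over all tested genes. The genes came from the fixed list or from the largest changes per direction in IFNg/LPS. Those of the second kind were chosen on IFNg/LPS values that also enter the difference, which favours a difference. Their number is therefore no separate result. Over all tested genes, 381 (2.44%) differed against M-CSF and 888 (5.68%) against IL-4. Differences are the log2 genotype effect in IFNg/LPS minus that in the other stimulus. Against both M-CSF and IL-4 the effect was more positive for Il12b (3.13, adjusted p = 0.048, and 3.02, 0.036), Cd14 (2.21, 0.0049, and 2.47, 0.0019), Inpp4b (4.28, 0.00070, and 3.65, 0.0017) and Itgb8 (1.55, 0.030, and 2.71, 0.00078). It was more negative against both for Pparg (-2.11, 0.020, and -2.35, 0.0076), Cysltr2 (-4.46, 3.3e-05, and -4.06, 9.2e-05), Gm9199 (-3.69, 2.2e-05, and -3.81, 1.4e-05), G530011O06Rik (-2.30, 0.0042, and -2.15, 0.0051), Slc18a1 (-2.37, 0.0027, and -2.15, 0.0037) and H60a (-1.49, 3.4e-05, and -1.24, 0.00019), although H60a rose in every stimulus. Gm9199, G530011O06Rik and H60a resemble other genes, so their reads may be shared.

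Against IL-4, the effect was more positive for Pik3cg (1.29, 0.035), Tnf (1.67, 0.0022), Il1b (3.44, 0.024), Vegfa (2.10, 0.037) and Coch (3.11, 0.026), and more negative for Arg1 (-2.36, 0.042), Mrc1 (-1.30, 0.023), Plekhg1 (-2.60, 0.0037), Adgb (-3.26, 0.015) and Lipg (-4.58, 0.016). Gm5150 differed from M-CSF alone (-3.26, 0.032). Il1b did not pass the genotype test in IFNg/LPS itself (adjusted p = 0.060; 0.042 with the block). Nor did Vegfa (1.03, adjusted p = 0.088), whose groups did not overlap, at 5272, 5506.9 and 4123.5 in WT and 10456.7, 12605.9 and 7764.7 in p110g-/- libraries; it passed with the block (0.029), in the 6 libraries alone (0.032), in libraries 2 and 3 (0.0099) and with DESeq2 (0.025), and did not with edgeR (0.064) or without p110g-/- library 1 (0.15). In IL-4, Tnf fell in p110g-/- cells, from 201.5, 293.6 and 255.3 to 154.2, 133.7 and 119.6 (-0.87, adjusted p = 0.013), the opposite direction to IFNg/LPS. Coch was at or under the level of 3 reads in both genotypes in M-CSF and IL-4. The test against IL-4 also compares 24 h with 48 h of stimulation, which cannot be told apart from the stimulus.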

How the results depend on the processing

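The 2303 calls kept their number within 1.5 times in most alternatives. Libraries numbered 2 and 3 only gave 4166 (1959 higher, 2207 lower), the 6 IFNg/LPS libraries alone 708 (283 and 425) and these with the replicate block 3879 (1879 and 2000). The block in the full model gave 2974 calls (1453 and 1521). Leaving out 1 library gave 1466 (without p110g-/- 2) to 2728 (without WT 1), with 668 to 1247 higher and 798 to 1571 lower. Of the 2303 genes, 2118 were also called by edgeR (2190 in all), 2196 by DESeq2 (2751), 2292 with the block, and 546 in every alternative.

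The 381 differences against M-CSF became 892 with DESeq2, 716 with the block, 1708 with libraries 2 and 3 and 211 (without p110g-/- 2), 212 (without WT 2) to 633 (without WT 1). The 888 against IL-4 became 1530, 1380, 3212 and 487 (without p110g-/- 2), 517 (without WT 2) to 1269. Pik3cg was at -0.53 in libraries 2 and 3, and between -0.71 (without p110g-/- 1) and -0.018 (without p110g-/- 2) when 1 library was left out. The sign turned only for values that did not pass. With 1 library left out, Nos2 ranged from -0.045 to 0.28 and Tgfb1 from -0.20 to 0.081 (0.021 without WT 3). The differences ranged from -0.57 to 0.91 for Il10 against M-CSF (also -0.21 with a pseudocount of 10 and -0.51 with libraries 2 and 3), -1.24 to 0.24 for Il10 against IL-4, -0.066 to 0.42 for Ciita against IL-4, -0.12 to 0.17 for Tgfb1 against M-CSF and -0.0085 to 0.28 for Tgfb1 against IL-4. That of Plekhg1 against M-CSF was 0.16 with libraries 2 and 3. For single genes under the alternatives, 2226 values kept sign and call, 210 lost the call, 24 gained it and 3 turned; for differences of effects these were 1017, 49, 42 and 12. Causes were not tested. At 40.647 to 69.603 M reads, levels under 3 reads cannot be told from 0.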

Other observations

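Genes beside Cd14 on the chromosome also moved in IFNg/LPS. In RefSeq gene order, and chosen after their values were seen, Apbb3 (the third gene before Cd14, 1.86), E230025N22Rik (the gene before it, 1.37), Tmco6 (the gene after it, 0.82) and Wdr55 (0.37) were called higher in p110g-/- macrophages, like Cd14 itself (1.92). Other genes of the same stretch were not called, such as Sra1 (-0.04), Slc35a4 (0.10), Ndufa2 (0.11), Ik (-0.25), Hars (0.09) and Ankhd1 (-0.09). For Apbb3, E230025N22Rik and Tmco6 the genotype effect also differed from M-CSF (1.85, 2.67 and 1.09) and from IL-4 (1.71, 2.38 and 0.92). How the authors' counting treated reads that run past the end of a gene, or the strand, is not given in the sources used here, and no cause was tested.

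A few genes of low level were above 10 in 1 genotype alone. In IFNg/LPS, 8 genes reached a value of 10 in the 3 WT libraries alone and 9 in the 3 p110g-/- libraries alone, of which 4 and 4 were called. These genes passed the filter only through the group where they were high, which favours a call. Their calls are therefore no separate result, and 14.7% of all tested genes were called. Among larger changes not described above, Kmo, an enzyme of tryptophan breakdown, fell by 2.00 (adjusted p = 0.00042) and Plagl1, a zinc finger factor, fell by 2.42 (adjusted p = 0.0013), while Igfbp4, which binds insulin-like growth factors, rose by 2.01 (adjusted p = 0.00030) and Efna2, an ephrin ligand, rose by 2.35 (adjusted p = 0.00093). These 4 were chosen after their values were seen, and each kept its call in all 18 alternatives.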
